A study of Mus musculus with 12 samples.

Results

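Lymphoid-primed progenitor genes are the genes that mark the step at which a multipotent blood progenitor begins to turn towards the lymphoid lineages. The set described here holds Flt3, Il7r, Cd27, Notch1, Ikzf1, Satb1, Dntt, Rag1 and Rag2, chosen by name, and all 9 symbols were found among the 55487 genes of the deposited tables. In mouse bone marrow these genes come on in steps. Flt3 rises on multipotent progenitors as they lose the capacity to form megakaryocytes and red cells, Ikzf1 and Satb1 open the lymphoid programme, and Dntt, Rag1 and Rag2 then begin the cutting and joining of antigen receptor genes before Il7r-driven growth takes over. LSK cells, which lack lineage markers and carry Sca-1 and Kit, hold stem cells and multipotent progenitors, and their lymphoid-primed subset is known for high Flt3 and Cd27 and for low transcription of Rag1 and Dntt.

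The libraries came from LSK cells sorted by flow cytometry from bone marrow of a transplant experiment in C57BL/6 mice, after lineage-positive cells had been depleted on magnetic columns. The groups were palbociclib, which blocks the cell cycle kinases CDK4 and CDK6, ruxolitinib, which blocks the cytokine receptor kinases JAK1 and JAK2, the combination of both drugs, and vehicle, with 3 libraries each. Every group, vehicle included, is labelled as homozygous for JAK2V617F, a mutation that leaves the kinase switched on in myeloproliferative neoplasms, so no comparison here is with cells free of the mutation. The labels used here give no age, sex, dose, length of treatment or origin of donor and host, and nothing in them ties the 3 libraries of a group to different animals. The p-values then measure only the spread between libraries, which may be technical.

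The deposited tables hold the authors' comparisons of each drug arm with vehicle, and values per library were not analysed here. The level of a gene in a group is therefore given as a modelled number of normalised reads per library, solved from the deposited folds and errors, with its 95% interval. The tables imply that each library held between 18.2 and 44.7 M reads in genes. The gate genes were present in every group: Kit stood at 15506 normalised reads under palbociclib, 14933 under ruxolitinib, 19878 in the combination and 14277 in vehicle, and Ly6a, which encodes Sca-1, at 2102, 1165, 3557 and 1004 in the same order of groups. Transcripts of 202 immunoglobulin genes made up 0.483% of normalised reads under palbociclib, 0.0226% under ruxolitinib, 7.60% in the combination and 0.0837% in vehicle. The summed level of 4 Y-linked genes was 10.9 under palbociclib, 2670 under ruxolitinib, 5.35 in the combination and 1081 in vehicle. The labels give no sex, so a difference in the sex of the cells cannot be told apart from the treatment.

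On GRCm38 with the GENCODE M21 annotation, all 9 were protein-coding genes. Rag1 (chr2:101638282-101649501, minus strand) and Rag2 (chr2:101624718-101632529, plus strand) lie 5753 bases apart with their ends facing each other. The longest exon union was that of Satb1 (chr17:51736187-51833290, minus strand) with 19027 bases, followed by Notch1 (chr2:26457903-26516663, minus strand) with 14232 bases. The others were Flt3 (chr5:147330741-147400489, minus strand), Il7r (chr15:9505788-9530176, minus strand), Cd27 (chr6:125232622-125237010, minus strand), Ikzf1 (chr11:11685003-11772926, plus strand) and Dntt (chr19:41029275-41059525, plus strand). Whether reads were counted by strand is not given in the sources used here. B230118H07Rik shares 208 exon bases with Rag2, on the opposite strand, and 80 with Rag1, and its base mean of 819 normalised reads in the authors' deposited table was far above those of Rag2 (34.6) and Rag1 (6.51). Its log2 fold changes in the authors' deposited tables were 0.10, 0.16 and 0.45 under palbociclib, ruxolitinib and the combination, and none passed. Notch1 shares 1068 exon bases with 0610009E02Rik on the opposite strand, which had a base mean of only 21.3 in the authors' deposited table.

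Promoter windows of 300 bases, from 250 before to 50 after the start, were taken from RefSeq on GRCm38.p6. All 9 genes had a window, 14 in all, with 5 for Satb1 and 2 for Ikzf1. The windows are printed for the genes that changed, and for Il7r because its window holds a motif of the pathway that ruxolitinib blocks. Capitals mark the matches to the motifs searched. The Satb1 window is at chr17:51833241-51833540 (minus strand), that of Notch1 at chr2:26503773-26504072 (minus strand), that of Ikzf1 at chr11:11689927-11690226 (plus strand, the second of its windows), that of Cd27 at chr6:125236978-125237277 (minus strand) and that of Il7r at chr15:9529827-9530126 (minus strand). The Notch1 window lies inside the gene span given above, whose 5′ end is farther upstream.
Satb1: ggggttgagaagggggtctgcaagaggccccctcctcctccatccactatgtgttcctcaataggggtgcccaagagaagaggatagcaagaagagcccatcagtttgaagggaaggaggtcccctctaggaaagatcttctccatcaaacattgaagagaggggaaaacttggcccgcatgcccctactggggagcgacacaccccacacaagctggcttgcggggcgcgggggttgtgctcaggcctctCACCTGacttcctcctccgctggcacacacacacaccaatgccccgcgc
Notch1: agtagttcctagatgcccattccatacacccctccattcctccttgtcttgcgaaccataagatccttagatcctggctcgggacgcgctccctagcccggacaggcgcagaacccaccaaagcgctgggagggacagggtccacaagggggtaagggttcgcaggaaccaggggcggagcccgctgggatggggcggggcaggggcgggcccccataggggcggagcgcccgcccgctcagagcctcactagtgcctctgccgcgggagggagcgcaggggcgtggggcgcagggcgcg
Ikzf1: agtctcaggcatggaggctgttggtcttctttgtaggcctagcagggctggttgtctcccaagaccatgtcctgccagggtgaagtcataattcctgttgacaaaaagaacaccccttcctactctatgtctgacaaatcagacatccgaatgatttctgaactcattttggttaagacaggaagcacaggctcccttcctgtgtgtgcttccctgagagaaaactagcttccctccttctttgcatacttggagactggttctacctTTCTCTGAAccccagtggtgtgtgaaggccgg
Cd27: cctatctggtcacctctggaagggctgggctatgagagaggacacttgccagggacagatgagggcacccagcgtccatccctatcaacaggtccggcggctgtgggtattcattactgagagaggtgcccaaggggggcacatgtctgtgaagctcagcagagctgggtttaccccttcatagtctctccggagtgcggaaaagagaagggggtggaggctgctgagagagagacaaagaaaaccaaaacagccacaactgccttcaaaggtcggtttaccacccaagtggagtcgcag
Il7r: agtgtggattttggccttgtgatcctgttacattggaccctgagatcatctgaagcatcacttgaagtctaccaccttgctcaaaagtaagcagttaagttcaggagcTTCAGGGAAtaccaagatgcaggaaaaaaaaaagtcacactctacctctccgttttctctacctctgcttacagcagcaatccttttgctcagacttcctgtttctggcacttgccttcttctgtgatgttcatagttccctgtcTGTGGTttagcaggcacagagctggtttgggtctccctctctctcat

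The letters searched on both strands were TTCNNNGAA for STAT factors, TGGGAA for the Ikaros core, TGTGGT for RUNX factors, the E-boxes CAGCTG and CAGGTG bound by E2A, and the E2F motifs TTTGGCGC and TTTCCCGC. The STAT motif and CAGCTG read the same on both strands, and no motif contains another. A STAT match was found in Il7r, 142 bases before the start, and in the second window of Ikzf1, at 19 bases after it; 8.30% of all 32851 RefSeq windows of this length hold one. Il7r also held a RUNX match (16.8% of all windows). The first Satb1 window held the second E-box, read on the minus strand as CACCTG (20.2% of all windows), and other Satb1 windows held Ikaros cores (25.6% of all windows) and E-boxes. Rag1, not printed, held an Ikaros core, a pair of RUNX matches and both E-boxes. No E2F match was found in any of the 14 windows, against 0.514% and 1.07% of all windows, and Cd27, Notch1, Dntt, Flt3 and Rag2 held no match to any motif searched. The windows of Notch1 (68.3% G and C), Flt3 (61.0%) and Cd27 (56.0%) were richer in G and C than the median window (52.7%), while those of Dntt (42.3%), Rag2 (43.0%) and Il7r (45.7%) were poorer.

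The 9 genes fell into 3 tiers of level per kilobase of the exon union, which joins the exons of all annotated transcripts. The union can be longer than any single transcript, so this scale compares genes only roughly. Satb1 has 14 annotated transcripts and a union of 19027 bases. Before division by length it stood at 3716 normalised reads in vehicle, beside 3310 for Cd27 and 3240 for Dntt. Its tier therefore depends on the length used. In vehicle, Ikzf1 was highest at 2118 normalised reads per kb, followed by Cd27 (1422), Dntt (1414) and Flt3 (930), whose intervals overlapped one another. Satb1 (195) and Notch1 (175) formed the middle tier, and Il7r (15.4), Rag2 (14.9) and Rag1 (2.22) the lowest, again with neighbours whose intervals overlapped within each tier. The 3 tiers stood apart in each of the 4 groups. Gaps also lay inside them: under palbociclib Flt3 was apart from Ikzf1 and Rag1 from Il7r, and in the combination Rag1 from Rag2. The order inside the top tier differed between the groups: Cd27 came first under palbociclib (1926 against 1425 for Ikzf1 per kb) and in the combination (2143 against 1360), and Ikzf1 under ruxolitinib (1737 against 1563 for Cd27) and in vehicle. The intervals of Cd27 and Ikzf1 were apart in the combination and in vehicle and overlapped in both single-drug groups.

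**Figure D1:**
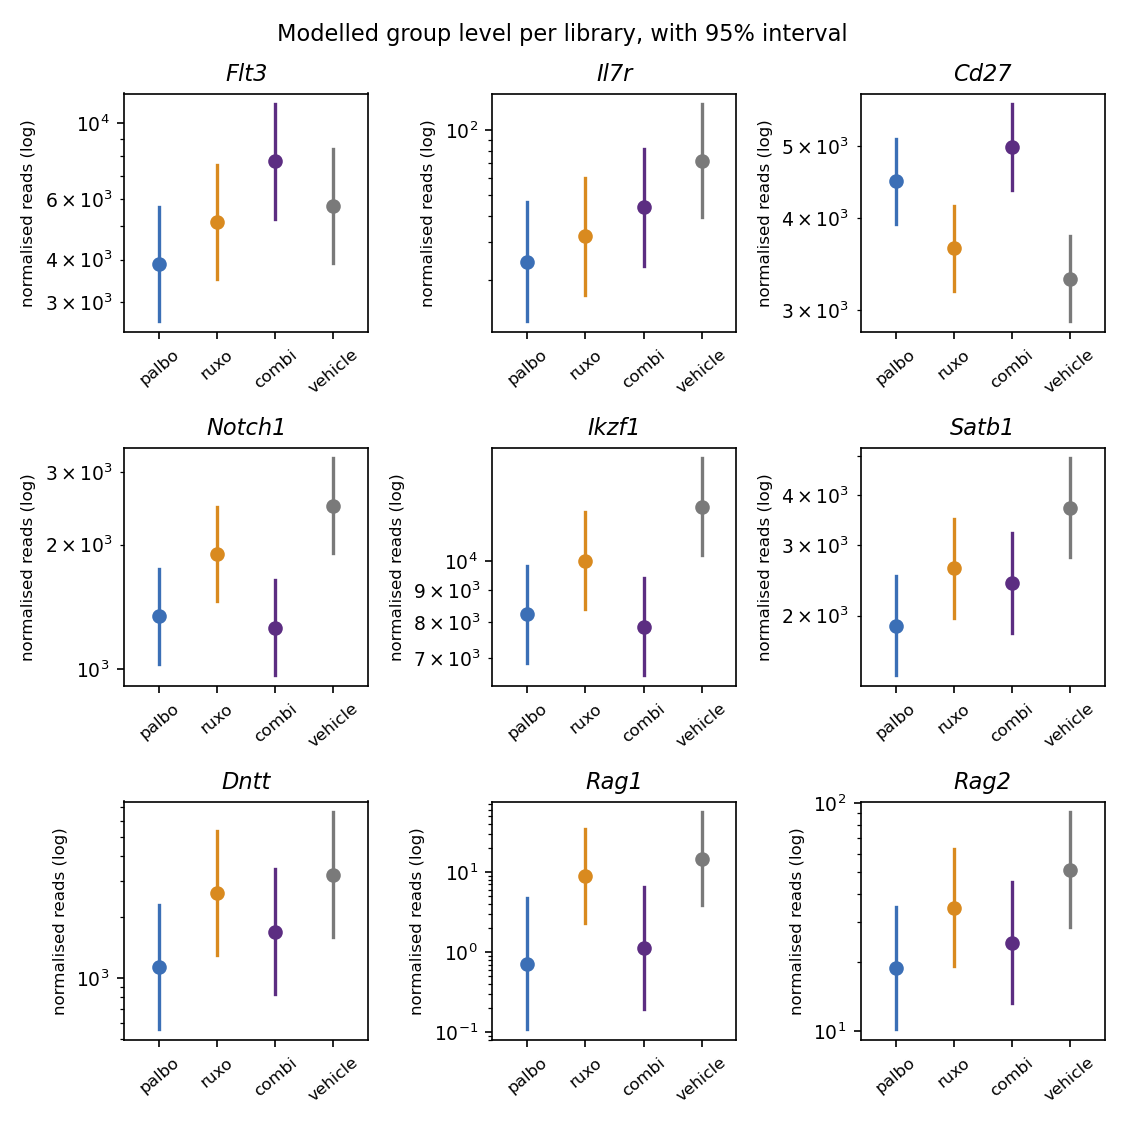
Modelled level of each gene in normalised reads per library (log axis, scale set per gene) for palbociclib, ruxolitinib, the combination and vehicle, from left to right; points are group levels and bars their 95% intervals. Notch1 and Ikzf1 were lowest and Cd27 highest under palbociclib and in the combination, where Rag1 was also at most 1.13 normalised reads.

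Against vehicle, Satb1, Notch1 and Ikzf1 fell and Cd27 rose under palbociclib alone, and no member passed under ruxolitinib alone. In the combination Notch1 and Ikzf1 fell and Cd27 rose. Of the 8 members that received an adjusted p under palbociclib, 1 rose and 3 fell, where 4.98% of the 15448 genes tested were higher and 3.64% lower. The calls of Cd27 and Ikzf1 there did not hold when the authors' DESeq2 Wald p-values were adjusted anew with no filter on low counts (Benjamini-Hochberg adjusted p = 0.056 and 0.070). None of the 4 reached a deposited adjusted p of 0.01. Under ruxolitinib 0 of 8 passed the authors' DESeq2 test, where 0.932% of genes were higher and 2.03% lower. At an unadjusted p under 0.05 there were 0 of 8 as well, where 12.7% of genes had one. In the combination 1 of 9 rose and 2 fell, where 12.9% of 19228 genes were higher and 10.2% lower. The median log2 fold change of the members tested in the authors' deposited tables was -0.93 under palbociclib, -0.35 under ruxolitinib and -0.72 in the combination, beside medians of 0.02, 0.01 and 0.06 over all genes tested. The 3 comparisons share the vehicle libraries, so the like sign of a member in several of them is not repeated evidence. In a bulk sample, fewer lymphoid-primed cells and less of each transcript per cell cannot be told apart.

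**Figure D2:**
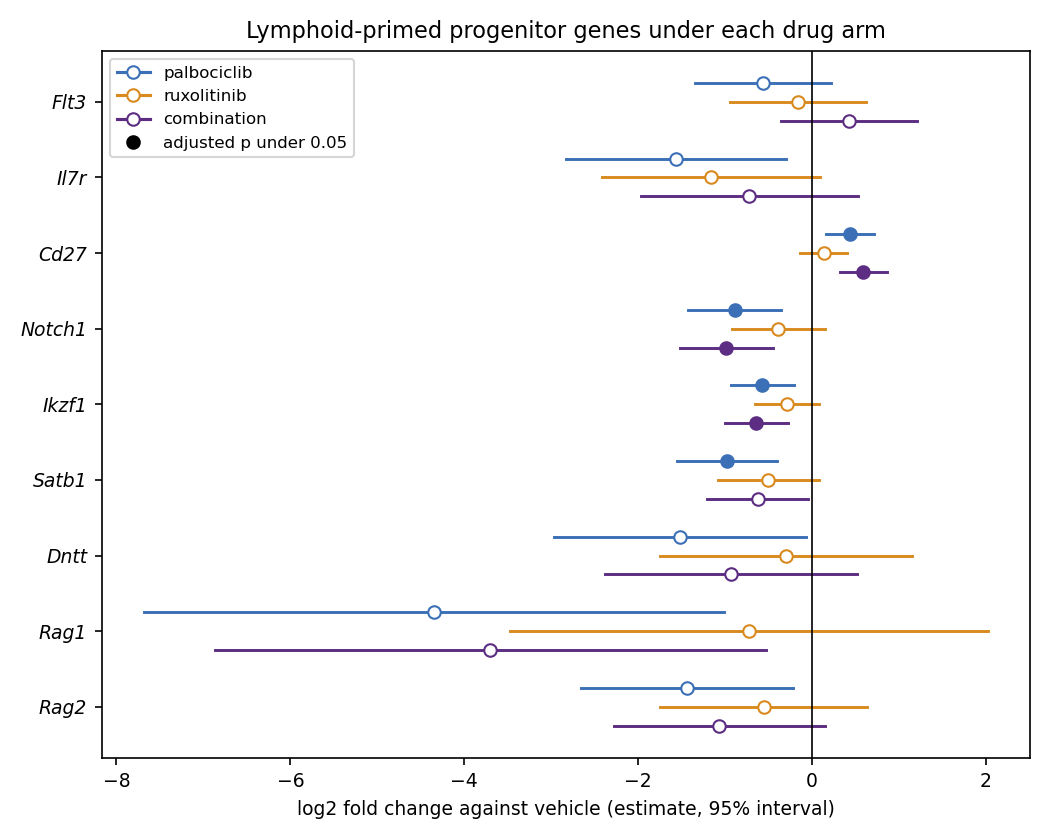
Log2 fold change of each gene against vehicle (horizontal axis) under palbociclib, ruxolitinib and the combination, with 95% intervals; filled points have an adjusted p under 0.05. Cd27 is the gene with filled points above 0, Notch1 and Ikzf1 have filled points below 0 under palbociclib and in the combination, and Satb1 has one under palbociclib.

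Among the receptors, Cd27 was the member that rose. Cd27 encodes a TNF receptor family protein that binds Cd70 and appears on multipotent progenitors as they leave the stem cell state. It stood at 4483 normalised reads under palbociclib (3926 to 5118), 3639 under ruxolitinib (3187 to 4156) and 4990 in the combination (4370 to 5698), against 3310 in vehicle (2899 to 3780). The intervals of palbociclib and of the combination lay above that of vehicle, and that of ruxolitinib overlapped it. Its log2 fold change in the authors' deposited tables was 0.44 ± 0.14 (SE, adjusted p = 0.026, DESeq2) under palbociclib, 0.14 ± 0.14 (adjusted p = 0.78) under ruxolitinib and 0.59 ± 0.14 (adjusted p = 0.00045) in the combination. Its rise under palbociclib was the smallest fold among the 7 calls, and its modelled spread between libraries the narrowest of the 9 genes, with a coefficient of variation of 11.6%. In humans plasma cells carry CD27 as well. Of the plasma cell markers, 8 of 8 rose in the combination, 1 of 8 under palbociclib and 0 of 8 under ruxolitinib. Of all genes tested, 12.9%, 4.98% and 0.932% were higher in the same order. Under ruxolitinib 7 of the 8 markers lay below 0. Their summed level, scaled to the normalised reads of the group (CPM), was 534 CPM under palbociclib, 110 under ruxolitinib and 8579 in the combination, against 159 in vehicle. The part of those cells in the Cd27 result was not tested.

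Flt3, the receptor for Flt3 ligand that defines lymphoid-primed multipotent progenitors, passed in no comparison. It stood at 3877 normalised reads under palbociclib (2642 to 5690), 5153 under ruxolitinib (3512 to 7561) and 7724 in the combination (5264 to 11332), against 5741 in vehicle (3913 to 8423). All 4 intervals overlapped, with palbociclib lowest and the combination highest. In the authors' deposited tables the log2 fold changes were -0.57 ± 0.40 (adjusted p = 0.43, DESeq2) under palbociclib, -0.16 ± 0.40 (0.94) under ruxolitinib and 0.43 ± 0.40 (0.46) in the combination. Given its error, a log2 change of at least 1.14 under palbociclib or 1.01 in the combination would have been needed to pass.

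Il7r, which encodes the interleukin-7 receptor alpha chain required for the growth of B and T cell precursors, was low in LSK cells. Its level was 24.3 normalised reads under palbociclib (12.9 to 46.0), 32.0 under ruxolitinib (17.2 to 59.8) and 43.6 in the combination (23.4 to 81.2), against 71.8 in vehicle (39.2 to 132). Vehicle was highest, and each drug interval overlapped it. The authors' deposited tables gave log2 fold changes of -1.56 ± 0.65 (unadjusted p = 0.016, adjusted p = 0.11, DESeq2), -1.16 ± 0.64 (adjusted p = 0.45) and -0.72 ± 0.64 (adjusted p = 0.44) for palbociclib, ruxolitinib and the combination.

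Notch1, the receptor that directs progenitors to the T lineage, fell in both arms that held palbociclib. It stood at 1340 normalised reads under palbociclib (1029 to 1745), 1899 under ruxolitinib (1459 to 2471) and 1256 in the combination (965 to 1637), against 2485 in vehicle (1911 to 3233). Both groups given palbociclib lay wholly below vehicle, and ruxolitinib lay between, overlapping vehicle. The log2 fold changes in the authors' deposited tables were -0.89 ± 0.27 (adjusted p = 0.021, DESeq2), -0.39 ± 0.27 (adjusted p = 0.62) and -0.98 ± 0.27 (adjusted p = 0.0038), which put Notch1 at 53.9%, 76.4% and 50.6% of vehicle under palbociclib, ruxolitinib and the combination.

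Ikzf1 encodes Ikaros, a zinc finger factor needed for the lymphoid potential of multipotent progenitors, and it had the highest level per kilobase of the 9 genes in vehicle. It stood at 8235 normalised reads under palbociclib (6885 to 9848), 10033 under ruxolitinib (8390 to 11998) and 7854 in the combination (6567 to 9395), against 12234 in vehicle (10231 to 14628). Both groups given palbociclib were below vehicle without overlap. The authors' deposited tables gave log2 fold changes of -0.57 ± 0.19 (adjusted p = 0.032, DESeq2) under palbociclib, -0.29 ± 0.19 (adjusted p = 0.58) under ruxolitinib and -0.64 ± 0.19 (adjusted p = 0.0057) in the combination.

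Satb1, a chromatin organiser that promotes lymphoid differentiation of stem cells, fell under palbociclib alone. Its level was 1887 normalised reads under palbociclib (1419 to 2508), 2627 under ruxolitinib (1977 to 3490) and 2413 in the combination (1815 to 3207), against 3716 in vehicle (2798 to 4936). The palbociclib interval lay below that of vehicle, and those of ruxolitinib and the combination overlapped it. In the authors' deposited tables the log2 fold changes were -0.98 ± 0.30 (adjusted p = 0.019, DESeq2), -0.50 ± 0.30 (adjusted p = 0.51) and -0.62 ± 0.30 (unadjusted p = 0.035, adjusted p = 0.11) for palbociclib, ruxolitinib and the combination. The combination minus palbociclib was 0.35 ± 0.42 in log2 (95% interval -0.47 to 1.17), so the loss of the call in the combination is not shown to be a difference between the arms.

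Among the genes of antigen receptor recombination, Dntt encodes terminal deoxynucleotidyl transferase, which adds bases at the joins, and is among the first lymphoid transcripts of LSK cells. It stood at 1131 normalised reads under palbociclib (556 to 2303), 2625 under ruxolitinib (1290 to 5343) and 1694 in the combination (832 to 3448), against 3240 in vehicle (1592 to 6593). All intervals overlapped, although the palbociclib level was 34.9% of vehicle. The authors' deposited tables gave log2 fold changes of -1.52 ± 0.74 (unadjusted p = 0.040, adjusted p = 0.20, DESeq2), -0.30 ± 0.74 (adjusted p = 0.93) and -0.94 ± 0.74 (adjusted p = 0.38) for palbociclib, ruxolitinib and the combination. A log2 change of at least 2.11 would have been needed to pass under palbociclib.

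Rag1 and Rag2 encode the recombinase that cuts antigen receptor genes. Rag1 stood at 0.718 normalised reads under palbociclib (0.109 to 4.74), 8.86 under ruxolitinib (2.28 to 34.4) and 1.13 in the combination (0.197 to 6.45), against 14.6 in vehicle (3.86 to 55.5). Over the 3 libraries of a group these levels correspond to about 2.07 reads under palbociclib, 27.5 under ruxolitinib, 3.13 in the combination and 49.1 in vehicle, so the folds of both palbociclib arms rest on a handful of reads. In the authors' deposited tables Rag1 had a log2 fold change of -4.35 under palbociclib (95% interval -7.68 to -1.02, unadjusted p = 0.011, no adjusted p given) and -3.70 in the combination (-6.86 to -0.53, unadjusted p = 0.022, adjusted p = 0.080, DESeq2). Under ruxolitinib it was -0.72 (-3.47 to 2.02, unadjusted p = 0.60, no adjusted p given) in the authors' deposited table.

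Rag2 stood at 18.9 normalised reads under palbociclib (10.2 to 35.0), 34.8 under ruxolitinib (19.3 to 62.8) and 24.4 in the combination (13.2 to 45.0), against 51.1 in vehicle (28.7 to 91.0). The order of the groups was that of Rag1, and all 4 intervals overlapped. The authors' deposited tables gave log2 fold changes of -1.44 ± 0.62 (unadjusted p = 0.021, adjusted p = 0.13, DESeq2) under palbociclib, -0.55 ± 0.61 (adjusted p = 0.81) under ruxolitinib and -1.07 ± 0.62 (adjusted p = 0.21) in the combination. Counted without adjustment, 7 of the 8 members tested under palbociclib had p under 0.05, Flt3 being the exception, where 22.4% of all genes tested did. In the combination 5 of 9 did, where 34.9% of all genes tested did.

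The members differed widely in how much they varied among libraries beyond counting error. The modelled coefficient of variation, shared by all libraries of the fit, was 62.8% for Dntt, 33.9% for Flt3, 25.0% for Satb1, 23.2% for Notch1 and 15.8% for Ikzf1. Genes with a base mean within 2-fold of these had medians between 12.8% and 13.1%. Of such genes, 99.6% had a lower dispersion than Dntt, 98.9% a lower one than Flt3, 96.5% than Satb1 and 93.6% than Notch1. Cd27 stood at the other side, with 38.3% of like genes lower. Il7r (52.3%), Rag2 (49.3%) and Rag1 (115%) varied about as much as other genes of their low level, whose medians were 48.8%, 51.1% and 102%. The fit held 24 libraries, 12 of them outside these groups and not analysed here, so this spread is not that of the 4 groups alone.

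**Figure D3:**
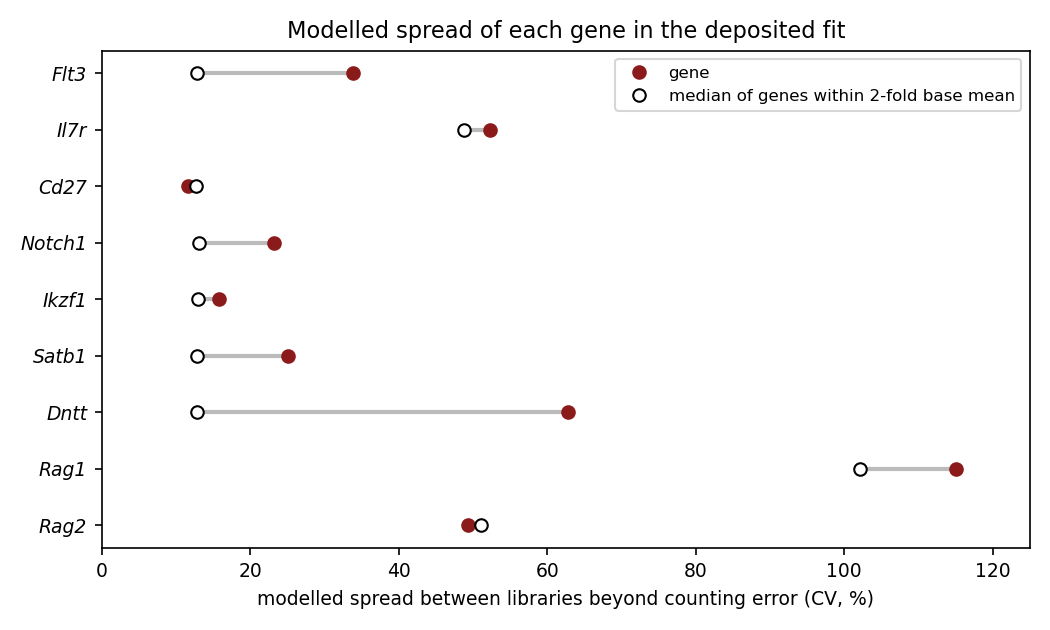
Modelled coefficient of variation between libraries beyond counting error, in percent, for each gene (filled) and the median of genes within 2-fold of its base mean (open). Dntt, at 62.8% beside 12.9%, lies farthest from its like genes, and Cd27, at 11.6%, lies just below its own.

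The arms were then compared with each other by the difference of the deposited folds, with an error that counts the shared vehicle libraries in both and is therefore wide. No member passed between the combination and ruxolitinib, where 1.62% of the 15448 genes passed, between the combination and palbociclib (0.0129%), between palbociclib and ruxolitinib (0.142%), or between the combination and the sum of both drugs (0.0712%). At an unadjusted p under 0.05 the counts in the same order were 1, 0, 0 and 0 of 8 members, beside 17.1%, 5.81%, 2.95% and 9.59% of all genes. When the error was solved so that the vehicle part cancels, 20.5%, 2.23%, 1.19% and 2.36% of all genes passed after adjustment, with 1, 0, 0 and 0 members. Without adjustment that error gave 2, 1, 1 and 3 of 8 members, beside 34.7%, 19.9%, 10.4% and 17.8% of all genes. The member that passed with it was Cd27 between the combination and ruxolitinib, at 0.46 ± 0.14 in log2 with the solved error (2-sided normal test, adjusted p = 0.010). With the DESeq2 errors added in full the same difference was 0.46 ± 0.20 (95% interval 0.07 to 0.84), with an adjusted p of 0.20 by that test. Cd27 in the combination was close to the sum of its single-drug folds, with a departure of 0.02 ± 0.24 (95% interval -0.45 to 0.49).

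Flt3 gave the widest difference of the members between the combination and palbociclib alone, at 0.99 ± 0.56 in log2 (95% interval -0.11 to 2.10), with an adjusted p of 0.83 from the DESeq2 folds and errors. With the solved error its adjusted p was 0.14, so it passed under neither. Against the sum of the single-drug folds the combination was higher by 1.15 ± 0.69 for Flt3, 2.01 ± 1.11 for Il7r and 0.86 ± 0.51 for Satb1, with adjusted p of 0.60, 0.55 and 0.60. The departure was above 0 for 9 of 9 members, but every one holds the same 12 libraries and none passed. Notch1 and Ikzf1 differed between the combination and palbociclib by -0.09 ± 0.39 (95% interval -0.85 to 0.67) and -0.07 ± 0.26 (-0.58 to 0.45), intervals that leave room for a difference of either sign. Between the combination and ruxolitinib the same genes differed by -0.60 ± 0.39 (-1.36 to 0.16) and -0.35 ± 0.26 (-0.87 to 0.16).

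Other genes of the Notch pathway were called at shares near those of all genes in the combination, where 11.5% of the list was higher and 15.4% lower beside 12.9% and 10.2% of all genes. Of 23 such genes tested under palbociclib, 2 rose and 2 fell, and of 26 tested in the combination 3 rose and 4 fell, with list medians of -0.04 and 0.14. Under ruxolitinib 0 of 23 passed (median -0.19), where 0.932% of all genes were higher and 2.03% lower. The palbociclib calls were 8.7% of the list in each direction, beside 4.98% higher and 3.64% lower of all genes. Mfng, a glycosyltransferase that modifies Notch receptors, rose by 0.60 ± 0.16 under palbociclib (DESeq2 adjusted p = 0.0050) and 0.94 ± 0.16 in the combination (4.4e-07) on the log2 scale of the authors' deposited tables. Its relative Lfng fell in the combination, to 842 normalised reads against 1243 in vehicle, and Maml3, a coactivator of Notch transcription, fell in both, to 1175 under palbociclib and 1136 in the combination against 1959 in vehicle. Hes1, a direct Notch target, rose in the combination by 2.54 ± 0.69 in log2 in the authors' deposited table (DESeq2 p of 0.0029 after adjustment), to 186 normalised reads against 31.9 in vehicle, while Notch1 itself was lower. Jag2, a ligand, rose under palbociclib (726 against 371 normalised reads in vehicle), Numb, an inhibitor of Notch, fell there (578 against 769), and Notch4 rose in the combination (70.0 against 27.5).

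Of 15 genes for Ikaros relatives and the NuRD remodelling complex that Ikaros recruits, 0 passed under palbociclib or ruxolitinib by DESeq2 and 1 rose and 5 fell in the combination (median -0.16). In the combination 6.67% of the list was higher and 33.3% lower, beside 12.9% and 10.2% of all genes. All-gene shares were 4.98% higher and 3.64% lower under palbociclib, and 0.932% and 2.03% under ruxolitinib. Gatad2a, Chd4 and Ikzf5 had the smallest p among those that fell, with log2 fold changes of -0.62 ± 0.17, -0.57 ± 0.16 and -0.48 ± 0.14 in the authors' deposited table (DESeq2 adjusted p of 0.0040, 0.0050 and 0.0057). The gene that rose was Ikzf3, which encodes the Ikaros relative Aiolos of B and plasma cells, at 185 normalised reads in the combination against 31.3 in vehicle.

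Partners of Il7r and Flt3 gave 3 rises and no fall of 12 under palbociclib (median -0.04), 0 of 12 under ruxolitinib (median -0.02) and 4 rises and 2 falls of 12 in the combination (median -0.07). The rises under palbociclib were 25% of the list, beside 4.98% of all genes, and 3.64% of all genes were lower there. Under ruxolitinib 0.932% of all genes were higher and 2.03% lower. In the combination 33.3% of the list was higher and 16.7% lower, beside 12.9% and 10.2% of all genes. Il7, the ligand of Il7r, rose to 96.7 normalised reads under palbociclib and 126 in the combination, against 40.1 in vehicle. Crlf2, the receptor subunit that pairs with Il7r to bind TSLP, rose under both, to 2506 and 2394 against 1688 in vehicle, and Jak3 rose under palbociclib alone (6623 against 4785). Il2rg, the common gamma chain that pairs with Il7r for interleukin-7, rose in the combination (1776 against 1246). Flt3l, which encodes the Flt3 ligand, rose there too (337 against 157 normalised reads in vehicle). Pik3cd and Cbl fell there, to 4506 and 4868 normalised reads against 7929 and 7379 in vehicle.

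The joining factors that complete V(D)J recombination passed in 0 of 13 under either single drug by DESeq2, with medians of -0.05 under palbociclib and -0.02 under ruxolitinib. Of all genes, 4.98% were higher and 3.64% lower under palbociclib, and 0.932% and 2.03% under ruxolitinib. In the combination 2 of the 13 rose and 2 fell (median -0.34). That was 15.4% of the list in each direction, near the 12.9% higher and 10.2% lower of all genes. Paxx and Xrcc5, of the end-joining machinery, rose to 771 and 1623 normalised reads against 429 and 1135 in vehicle. Poll, a DNA polymerase of end joining, fell to 514 against 754, and Hmgb2, which helps the recombinase bend DNA, to 14598 against 23014. Among 9 signalling partners of Cd27, Birc3 fell under palbociclib (952 against 1355 in vehicle) and ruxolitinib (838), and Birc2 rose and Traf3 and Traf2 fell in the combination, with medians of -0.18, -0.07 and -0.13 for the 3 comparisons. In the combination 11.1% of these were higher and 22.2% lower, beside 12.9% and 10.2% of all genes. Under each single drug 11.1% were lower, beside 3.64% of all genes for palbociclib and 2.03% for ruxolitinib. The ligand gene Cd70 was too low to give a level.

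Of the early lymphoid regulators other than the members, 1 rose and 1 fell of 18 under palbociclib (median -0.20). That was 5.56% of the list in each direction, near the 4.98% higher and 3.64% lower of all genes. Under ruxolitinib 0 of 18 passed (median -0.17), where 0.932% of all genes were higher and 2.03% lower. In the combination 0 rose and 2 fell of 19 (median -0.14). That was 0% higher and 10.5% lower, beside 12.9% and 10.2% of all genes. Lmo2 rose and Gfi1 fell under palbociclib, to 20813 and 823 normalised reads against 15795 and 1462 in vehicle, and Runx1 and Spi1, which encodes PU.1, fell in the combination, to 3274 and 2917 against 5245 and 3853. Of 12 further genes of lymphoid priming, 0 passed under either single drug by DESeq2 (medians -0.14 under palbociclib and -0.29 under ruxolitinib). Of all genes, 4.98% were higher and 3.64% lower under palbociclib, and 0.932% and 2.03% under ruxolitinib. In the combination 5 of the 12 rose and 1 fell (median 0.12). That was 41.7% higher and 8.33% lower, beside 12.9% and 10.2% of all genes. Ly6d, a surface marker of B-primed lymphoid progenitors, stood at 831 normalised reads in the combination against 14.2 in vehicle, Lax1 at 1350 against 350 and Blnk, an adaptor of the B cell receptor, at 407 against 30.9. The plasma cell markers rose in the same comparison and the immunoglobulin share of reads was 7.60% in the combination against 0.0837% in vehicle, and their part in these rises was not tested.

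Markers of other cells were read beside the members. Of all genes tested, 4.98% were higher and 3.64% lower under palbociclib, 0.932% and 2.03% under ruxolitinib, and 12.9% and 10.2% in the combination. Of the B cell list, 1 of 7 tested rose under palbociclib, Pou2af1, 0 of 7 under ruxolitinib, and 4 of 11 in the combination, Pou2af1, Cd79a, Fcrla and Cd79b, and the list summed to 31.3 CPM under palbociclib, 20.6 under ruxolitinib and 135 in the combination, against 22.5 in vehicle. The genes that define B cell precursors stayed near 0: Ebf1 was between 0.912 and 3.29 normalised reads in the 4 groups, and Pax5 and Ms4a1 had base means of 1.11 and 1.59 in the authors' deposited table. Of the T cell list 3 rose (Gata3, Cd28 and Thy1) and 1 fell of 11 in the combination (sums of 71.3, 61.7 and 85.5 CPM under palbociclib, ruxolitinib and the combination, against 53.4 in vehicle), and Cd3d, Cd3e and Cd8a were too low to give a level. Tcf7, which Notch signalling induces in early T progenitors, was the gene that fell, with -2.77 ± 0.56 on the log2 scale of the authors' deposited table (DESeq2 adjusted p = 4.5e-05), to 32.0 normalised reads against 218 in vehicle. Ncr1 was the NK cell gene that fell in the combination, 1 of 7 tested. Its level there was 0.215 normalised reads against 7.97 in vehicle, so the call rests on few reads. The NK list summed to 143, 108 and 112 CPM under palbociclib, ruxolitinib and the combination, against 119 in vehicle. Most of that sum was Nkg7, at 3227 normalised reads in vehicle, which passed in no arm.

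In the list of plasmacytoid dendritic cells, which also arise from Flt3-positive progenitors, Irf8 and Ly6c2 fell in all 3 arms, of 5 tested under each single drug and 7 in the combination. Irf8 stood at 952 normalised reads under palbociclib, 1770 under ruxolitinib and 751 in the combination, against 3804 in vehicle. Ly6c2 stood at 349, 327 and 262 against 1744. The list summed to 195, 227 and 178 CPM against 329, a fall that mostly followed Irf8 and Ly6c2. Siglech and Spib, of the same list, were near the floor, at 3.20 and 3.56 normalised reads in vehicle. Bst2 was the 1 tested gene of the list above 0 in each arm, and it passed in none. Whether plasmacytoid dendritic cells were fewer was not tested. Neutrophil markers rose in 6 of 9 under palbociclib and 5 of 9 in the combination and fell in 2 of 9 under ruxolitinib, with sums of 259 CPM under palbociclib, 51.8 in the combination and 7.35 under ruxolitinib, against 25.6 in vehicle. Stem cell markers rose in 5, 2 and 7 of 9 under palbociclib, ruxolitinib and the combination, with sums of 1285, 1001 and 1430 CPM against 801. Of all genes tested, 4.98%, 0.932% and 12.9% were higher and 3.64%, 2.03% and 10.2% lower in the same order. The 9 lymphoid-primed genes summed to 753, 916 and 842 CPM under palbociclib, ruxolitinib and the combination, against 1057 in vehicle. Whether the balance of cell types in the sort carried the falls of Notch1, Ikzf1 and Satb1 was not tested.

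**Figure D4:**
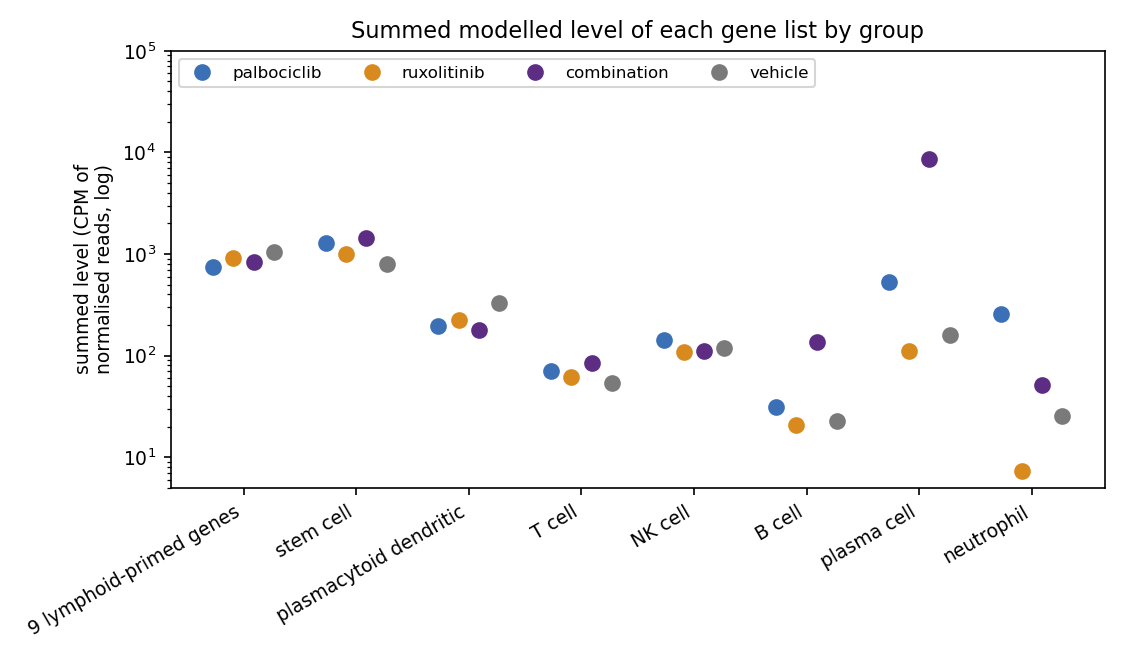
Summed modelled level of each gene list in CPM of normalised reads (log axis) for palbociclib, ruxolitinib, the combination and vehicle, from left to right within a list. The lymphoid-primed genes lie between 753 and 1057 in all groups, and the plasma cell list reaches 8579 in the combination beside 159 in vehicle.

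Genes whose 3 log2 fold changes lay nearest to those of a member were found by Euclidean distance among 11101 genes with a base mean of at least 50. For Notch1 these were Ckap2l, Anln and Kif14, at distances of 0.09 to 0.12. For Ikzf1 they were Arsb, Zmiz1 and Rcor1 (0.03 to 0.05), for Satb1 Zfp703, Raph1 and Lpcat2 (0.03 to 0.13), and for Cd27 Swsap1, Fhl3 and Nr1d2 (0.03 to 0.06). Dntt lay nearest to H1f4, Rtkn2 and Aspm (0.13 to 0.25), Flt3 to Smim26, Lats2 and Spock2 (0.07 to 0.14), Il7r to St8sia6, Pik3r6 and Acss1 (0.22 to 0.30) and Rag2 to Arhgap19, Cds1 and Olfm1 (0.10 to 0.28). Rag1 had no near neighbour: the closest, Elane, Hspa1b and Tifab, were 1.84 to 1.97 away. The patterns rest on 3 comparisons with shared vehicle libraries and are descriptions only.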

How the data were processed

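PolyA RNA of 12 libraries was sequenced. Tools named in the submitters' processing notes, with no settings, are HISAT2 2.0.1, fastp 0.20.0, featureCounts 2.0.0, SAMtools 1.10 and DESeq2 (version not given), with build GRCm38.

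The files used were 3 tables of the authors' DESeq2 fit, each a drug arm against vehicle. The deposited base mean, a signal, is the authors' mean of normalised read counts over the libraries of their fit. The deposited log2 fold change and standard error are the authors' model estimates. The deposited score is the Wald statistic. Each deposited p-value is a 2-sided Wald p of the authors, which they adjusted by the Benjamini-Hochberg method. Genes with an adjusted value under 0.05 passed, and "rose" and "fell" mean that it passed. Nothing was refitted.

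Size factors, group levels and dispersions were solved in Python 3.11.15 with scipy 1.17.1, pandas 2.3.3 and numpy 2.4.6, and figures drawn with matplotlib 3.10.9. For each gene the vehicle level and the dispersion were solved from the 3 standard errors, which were met within 1e-06 for 19174 of 19228 genes (99.7%). The base means showed that the fit held 24 libraries. The 95% intervals hold counting error and modelled spread and nothing else. Differences between arms were the difference of the deposited folds divided by their errors added in quadrature, with a 2-sided normal p and Benjamini-Hochberg adjustment over 15448 genes. Both methods were tested on simulated data. GENCODE M21 held 55227 of the gene identifiers (99.5%).

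All 9 members were named in every comparison. From each other list up to 3 genes a comparison with the smallest p among those that passed were to be named. Beyond that rule Maml3, Notch4, Ikzf3, Cbl, Flt3l, Xrcc5, Thy1, Cd79b, Kit, Ebf1, Pax5, Ms4a1, Cd3d, Cd3e, Cd8a, Cd70, Nkg7, Siglech, Spib, Bst2 and the genes overlapping members were named after their values were seen. Some list genes that passed are not reported here by name. The members and the lists were chosen with earlier results of these data known. Alternatives were other thresholds, no filter on low counts, a base mean of at least 50, other errors of the differences and a vehicle level taken from the base mean.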

Additional observations from a re-analysis of the deposited data

How the results depend on the processing

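The count of members that passed under palbociclib was 4 and fell to 0 at a threshold of 0.01, and to 2 (Satb1 and Notch1) with no filter on low counts, which put Cd27 at an adjusted p of 0.056 and Ikzf1 at 0.070. The combination against ruxolitinib went to 1 member (Cd27) with a correlation of 0.5 between the estimates and to 1 (Cd27) with solved group variances, at adjusted p of 0.0099 and 0.010. At a threshold of 0.1, Rag1 also passed in the combination. The other 24 counts stayed within 1.5 times. These settings changed only thresholds, filters and errors and left the fold changes as they were, so they could not test their directions. No paired analysis was possible because the deposited tables give no values per library, and leaving out a replicate was not possible for the same reason. Depth limits Rag1, with about 2.07 reads over the palbociclib group, and the spread between libraries limits Dntt and Flt3.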
